A study of Populus ussuriensis with 12 samples.

Results

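Plasma membrane intrinsic proteins (PIPs) are the aquaporins of the plant plasma membrane, and 10 poplar PIP genes, 5 of the PIP1 and 5 of the PIP2 subfamily, were followed across root libraries of *Populus ussuriensis*. They were taken by identifier from the 35907 gene identifiers of the deposited files. The files pair no identifier with a gene name, so the assignment to PIP1 and PIP2 was not checked against sequence. The PIP1 identifiers are Potri.008G065600.v3.1, Potri.003G128600.v3.1, Potri.010G191900.v3.1, Potri.006G098100.v3.1 and Potri.016G113300.v3.1. The PIP2 identifiers are Potri.009G136600.v3.1, Potri.004G176300.v3.1, Potri.016G089500.v3.1, Potri.010G221700.v3.1 and Potri.006G128000.v3.1, and the ending is left off below.

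The libraries came from roots of plants grown in vitro, wild type or overexpressing PuC3H35, a zinc finger protein of the C3H family. Plants were 7 days old when they were moved to half-strength Murashige and Skoog medium, either plain (control medium) or with 6% PEG6000, a polyethylene glycol that makes water in the medium harder for roots to take up, and stayed there for 7 days. The growth protocol also mentions MeJA in media without saying whether any of these plants received it. The 4 groups were wild type on control medium, wild type on PEG, overexpressor on control medium and overexpressor on PEG, with 3 libraries each. The labels used here do not give the promoter that drives the transgene, the number of transgenic lines, or whether libraries came from separate plants, so p-values reflect only how far these libraries vary, and that variation may be technical.

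PIPs let water pass through the plasma membrane of root cells, and in many plants they carry much of the water that crosses living root tissue. The channel is a tetramer. PIP2 proteins commonly form water channels on their own when they are produced in frog oocytes, whereas many PIP1 proteins reach the plasma membrane mainly in mixed tetramers with PIP2. The abundance of PIP transcripts in roots is known to change under osmotic stress, often in different directions for different members of the family.

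Levels are FPKM as deposited, that is fragments or reads divided by gene length and by the library's total, and so can be compared between genes of different length. Whole reads could be recovered from the steps between FPKM values, with 10566925 to 12053892 reads per library. The members had 56 to 26213 reads in a library. Their recovered gene lengths ran from 1137 to 1698 bases, except for Potri.010G221700 with 4035 bases, so that its level rests on a gene model much longer than those of the other members. The coefficient of variation between the 3 libraries of a group had a median of 12% over the 40 combinations of gene and group and reached 31.4%. How the authors' counting divided reads that match several PIP genes is not given in the sources used here, so levels of closely similar members are uncertain to that extent. These are whole-root libraries, in which fewer cells of a type and less RNA per cell cannot be told apart.

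Of the summed FPKM of the 10 genes, most came from the 5 PIP1 genes. Other PIP genes were not examined, so the PIP sum, shares and ranks among PIPs refer to these 10 genes only. In wild type on control medium the 5 PIP1 genes summed to 3681, 4291 and 4081 FPKM in libraries 1, 2 and 3, and the 5 PIP2 genes to 722, 838 and 810 FPKM. PIP1 genes thus made up 83.6% ± 0.114 (SD, n = 3) of the PIP sum. Together the 10 genes took 0.787% ± 0.0559 of all FPKM in this group. The sum of all 10 was 4808 ± 370 FPKM (SD, n = 3) in the wild-type controls and 3473 ± 250 in wild type on PEG. For the overexpressor it was 3281 ± 337 FPKM without PEG and 3507 ± 401 with it. The wild-type control libraries, at 4404 to 5129 FPKM, lay above all 9 other libraries, which ran from 2989 to 3760 FPKM and overlapped among the other groups.

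**Figure D1:**
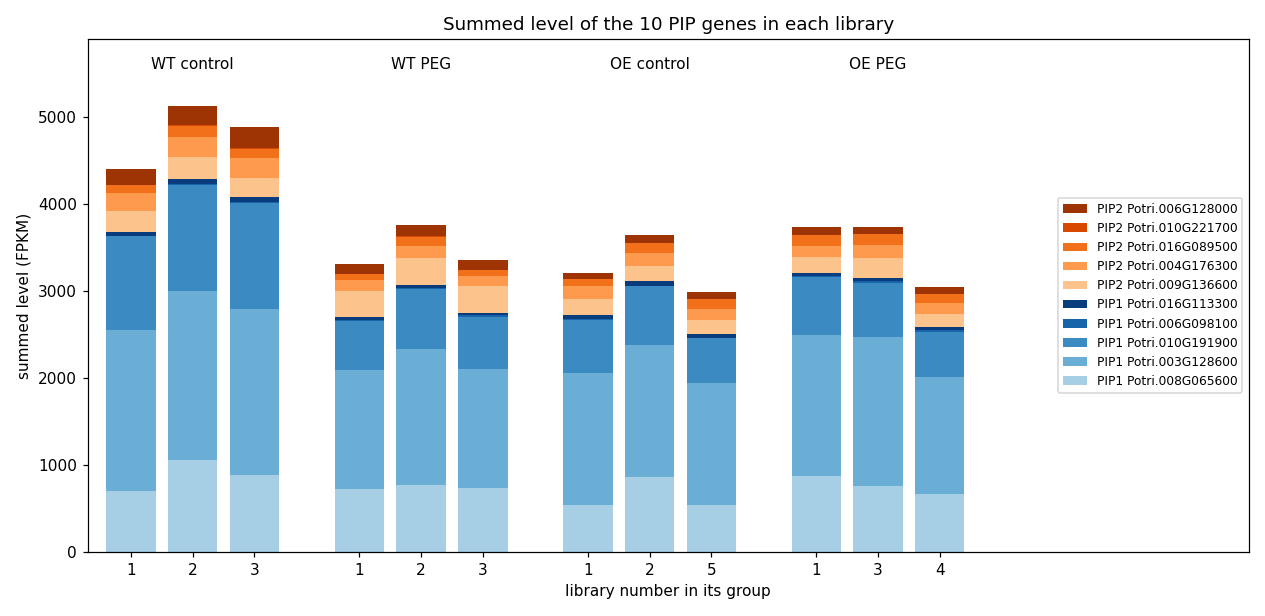
Stacked bars give the FPKM of each PIP gene in each library, PIP1 genes in blue and PIP2 genes in orange, with WT for wild type and OE for the PuC3H35 overexpressor. The 3 wild-type control libraries stand at 4404 to 5129 FPKM and the other 9 at 2989 to 3760 FPKM.

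Members differed widely in abundance. In wild type on control medium Potri.003G128600 stood highest at 1901 ± 46.1 FPKM, followed by Potri.010G191900 at 1174 ± 79 and Potri.008G065600 at 881 ± 180 FPKM. The libraries of these 3 PIP1 genes did not overlap one another, and Potri.003G128600 was among the most abundant transcripts of the root, at rank 16 of 24976 tested genes by its mean over the 12 libraries. The PIP2 genes Potri.009G136600, Potri.004G176300 and Potri.006G128000 followed at 235 ± 15.4, 226 ± 12.9 and 216 ± 33.5 FPKM, and their libraries overlapped. Below them came Potri.016G089500 (PIP2) at 107 ± 20.5 FPKM and Potri.016G113300 (PIP1) at 57 ± 11.9 FPKM. The lowest were Potri.010G221700 (PIP2) at 5.79 ± 0.326 FPKM and Potri.006G098100 (PIP1) at 4.16 ± 0.725 FPKM.

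This order changed in places between the groups. Potri.010G191900 stood above Potri.008G065600 in wild type on control medium and below it by mean in the other 3 groups, although the libraries of both genes overlapped in the overexpressor on control medium. Potri.006G098100, last in wild type on control medium, was ninth in the other groups, ahead of Potri.010G221700. All 10 genes were above the minimum of 1 FPKM in all 12 libraries, the lowest single value being 2.96 FPKM, so that none entered the test through 1 group alone.

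**Figure D2:**
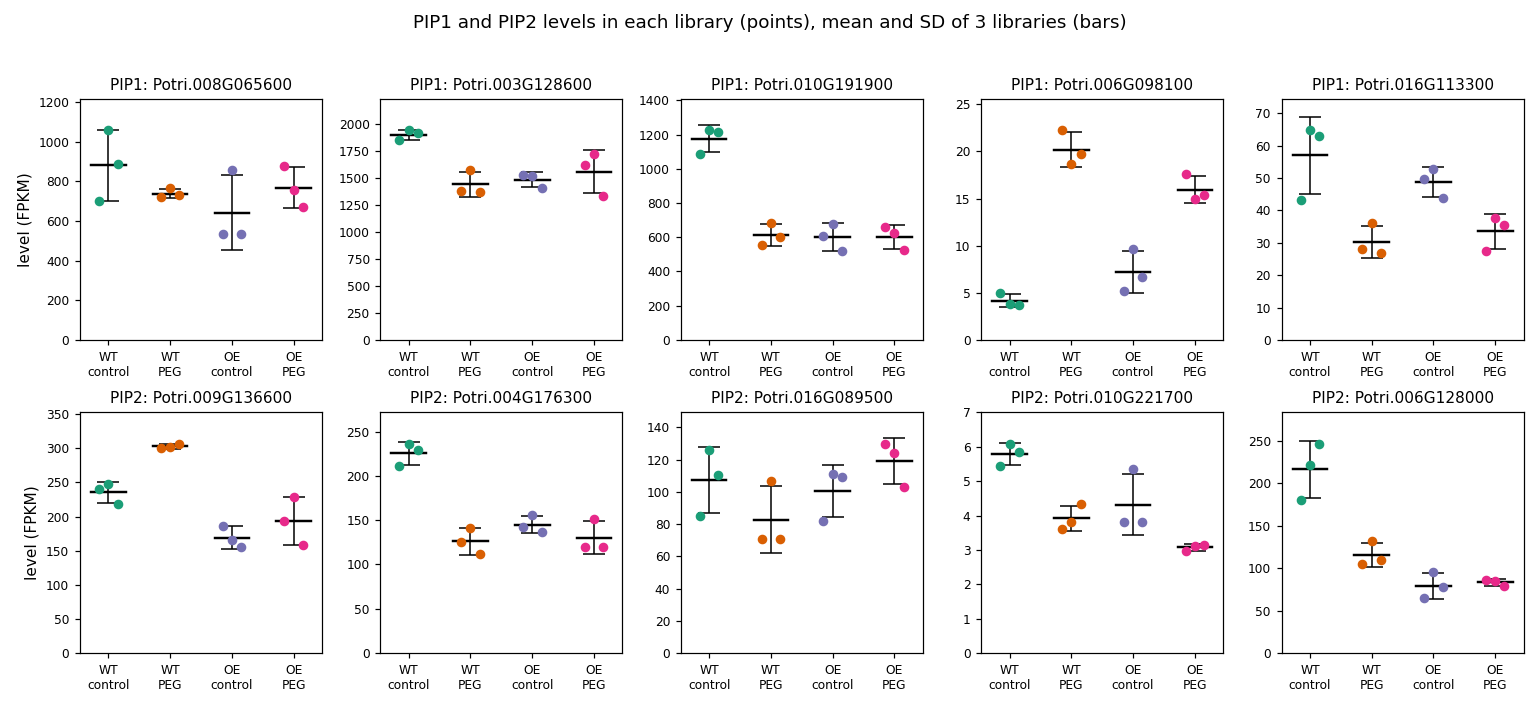
Each panel shows 1 PIP gene on its own linear axis from 0, with the FPKM of each library as a point and the mean and SD of the 3 libraries of a group in black (WT, wild type; OE, PuC3H35 overexpressor). Potri.010G191900 stands at 1083 to 1224 FPKM in wild-type controls and at 519 to 681 FPKM in the other 3 groups, and Potri.006G098100 is higher on PEG than on control medium in both genotypes.

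Among the PIP1 genes, the values of Potri.010G191900 separated the wild-type controls from all other libraries. It had 1083, 1224 and 1216 FPKM in libraries 1, 2 and 3 of wild type on control medium, and 556, 681 and 599 FPKM in wild type on PEG. Overexpressor libraries 1, 2 and 5 on control medium had 608, 678 and 519 FPKM, and libraries 1, 3 and 4 on PEG had 659, 624 and 525 FPKM. The 3 groups other than the wild-type controls overlapped. Potri.003G128600, the most abundant of the 10 genes, followed the same outline over a smaller range. It had 1851, 1941 and 1912 FPKM in the wild-type controls and 1375, 1574 and 1372 FPKM in wild type on PEG. Its overexpressor libraries had 1528, 1516 and 1404 FPKM on control medium and 1623, 1719 and 1336 FPKM on PEG. The wild-type controls lay above all the other libraries here too.

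Potri.006G098100 was the PIP1 gene with the opposite course. It had 5, 3.78 and 3.71 FPKM in the wild-type controls, from 56 to 78 reads, and 22.2, 18.6 and 19.7 FPKM in wild type on PEG. The overexpressor had 5.23, 9.66 and 6.69 FPKM without PEG and 17.6, 14.9 and 15.3 FPKM with it. The 4 groups did not overlap in any pair, and their order from low to high was wild-type controls, overexpressor controls, overexpressor on PEG and wild type on PEG. Its share of the PIP sum was small throughout, 0.0877% ± 0.0224 (SD, n = 3) in the wild-type controls and 0.585% ± 0.0889 in wild type on PEG.

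The other PIP1 genes varied more between libraries. Potri.008G065600 had 699, 1058 and 887 FPKM in the wild-type controls and 719, 765 and 733 FPKM in wild type on PEG. Its overexpressor libraries had 534, 859.6 and 534 FPKM on control medium and 877, 754 and 670.4 FPKM on PEG, and each group overlapped with at least 1 other. Library 2 of the overexpressor controls stood far above the other 2 libraries of its group for this gene. Potri.016G113300 had 43.3 to 64.7 FPKM in the wild-type controls and 43.8 to 52.8 FPKM in the overexpressor controls, against 26.9 to 36 FPKM in wild type on PEG and 27.4 to 37.7 FPKM in the overexpressor on PEG. For this gene the control and PEG libraries did not overlap in either genotype, and the genotypes overlapped on both media.

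Among the PIP2 genes, Potri.006G128000 covered the widest range. It had 180, 222 and 247 FPKM in the wild-type controls and 105, 132 and 109 FPKM in wild type on PEG. Its overexpressor libraries had 64.2, 95 and 77.9 FPKM on control medium and 86.4, 84.2 and 78.6 FPKM on PEG. All 6 overexpressor libraries lay below all 6 wild-type libraries, on either medium. Potri.004G176300 had 211, 237 and 229 FPKM in the wild-type controls and 125, 142 and 111 FPKM in wild type on PEG. Its overexpressor libraries had 142, 156 and 137 FPKM on control medium and 119.6, 152 and 119.6 FPKM on PEG. For this gene, as for Potri.010G191900, the wild-type controls stood apart and the other 3 groups overlapped.

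Potri.009G136600 was the most abundant of the 5 PIP2 genes over the 12 libraries, and alone among them it stood highest in wild type on PEG. It had 240.1, 248 and 218 FPKM in the wild-type controls and 299.8, 302 and 307 FPKM in wild type on PEG. The overexpressor had 187, 166 and 155 FPKM without PEG and 194, 229 and 158 FPKM with it. Wild type on PEG was above every other library, and the overexpressor controls were below both wild-type groups. Potri.016G089500 ran from 70.5 to 129.9 FPKM with wide overlap, its highest mean being 119 ± 14.3 FPKM in the overexpressor on PEG. Potri.010G221700 had 5.45 to 6.1 FPKM in the wild-type controls, above the 3.61 to 4.33 FPKM of wild type on PEG, the 3.8 to 5.35 FPKM of the overexpressor controls and the 2.96 to 3.14 FPKM of the overexpressor on PEG.

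On PEG, wild-type roots held less of most of the 10 PIP transcripts and more of 2 of them. With limma on log2(FPKM + 1) over 24976 genes, 6 of the 10 members were lower (3 PIP1 and 3 PIP2) and 2 were higher (1 of each), where a gene is called when its Benjamini-Hochberg adjusted p over all tested genes is under 0.05. Of all tested genes 28.6% were called, 16.6% lower and 12% higher. The median log2 change was -0.44 over the 10 members and -0.043 over all tested genes. The largest falls were those of Potri.010G191900 by 0.94 (SE 0.129, limma adjusted p 1.95e-04), Potri.006G128000 by 0.89 (SE 0.149, adjusted p 7.75e-04), Potri.016G113300 by 0.88 (SE 0.17, adjusted p 0.00215) and Potri.004G176300 by 0.84 (SE 0.116, adjusted p 2.12e-04), all on the log2 scale. These genes kept 0.521, 0.534, 0.532 and 0.559 times their mean control FPKM. Smaller falls were called for Potri.010G221700, by 0.47 (adjusted p 0.0143), and Potri.003G128600, by 0.4 (adjusted p 0.0205).

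The rise of Potri.006G098100 was the largest change of any member, 2.04 (SE 0.173, limma adjusted p 5.73e-06), from a mean of 4.16 to 20.2 FPKM, a ratio of 4.85. The scale of log2(FPKM + 1) understates the change of such a low gene. Potri.009G136600 rose by 0.37 (SE 0.124, adjusted p 0.044), a ratio of 1.29 of the means. The 3 libraries on each medium did not overlap for 8 of the 10 members, 6 lower and 2 higher. The same held for 44.3% of all tested genes (25.3% lower and 18.9% higher). These 8 were also the called members, and a call and a lack of overlap rest on the same values. Potri.008G065600 and Potri.016G089500 did not pass the test, with log2 changes of -0.23 (95% interval -0.66 to 0.19) and -0.38 (-0.79 to 0.03). Potri.016G089500 passed without library 2 of wild type on PEG (-0.57, adjusted p 0.0345). The call of Potri.009G136600 was lost in 8 of the 12 fits that leave out 1 library, namely each wild-type library, overexpressor control 2 and overexpressor PEG library 1, and over all alternatives its adjusted p ran from 0.0137 to 0.146. That of Potri.003G128600 was lost when wild-type control 2 (adjusted p 0.0559), wild-type control 3 (0.0611), wild-type PEG library 1 (0.0759) or wild-type PEG library 3 (0.0798) was left out, and that of Potri.010G221700 without library 1 of wild type on PEG (0.06). With no filter on low values, the calls of Potri.003G128600 (adjusted p 0.112) and Potri.009G136600 (0.064) were lost with all libraries kept. The count of members called lower ran from 4 to 7 when 1 library was left out. In the same fits 5266 to 7596 of all tested genes were called in either direction, against 7147 with all libraries.

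The same treatment was followed by a called change of 1 member in the overexpressor. Potri.006G098100 rose by 1.08 (SE 0.173, limma adjusted p 0.00681), from 7.19 ± 2.26 to 16 ± 1.43 FPKM, a ratio of 2.22. Of all tested genes 2.08% were called in this comparison, 1.54% higher and 0.537% lower. No member was called lower by limma or by limma-voom on recovered reads. At an unadjusted p under 0.05, for which no share over all tested genes was counted in any comparison, 2 members were lower. These were Potri.016G113300 (log2 change -0.54, adjusted p 0.16) and Potri.010G221700 (-0.37, adjusted p 0.197), for both of which the libraries on each medium did not overlap. With Potri.006G098100 this made 3 members without overlap, 2 lower and 1 higher, against 17.1% of all tested genes (10.7% lower and 6.45% higher). Of the abundant PIP1 genes, Potri.003G128600 had a log2 change of 0.066 (95% interval -0.19 to 0.32) and Potri.010G191900 of 0.0043 (-0.28 to 0.29). The estimate for Potri.008G065600 was less precise, 0.28 (-0.14 to 0.71). The PIP2 genes Potri.006G128000, Potri.009G136600 and Potri.004G176300 had 0.088 (-0.24 to 0.41), 0.18 (-0.091 to 0.45) and -0.16 (-0.41 to 0.093). The median over the 10 members was 0.077, against -0.051 over all tested genes. In a fit of the 6 overexpressor libraries alone the change of Potri.006G098100 had an adjusted p of 0.0529.

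**Figure D3:**
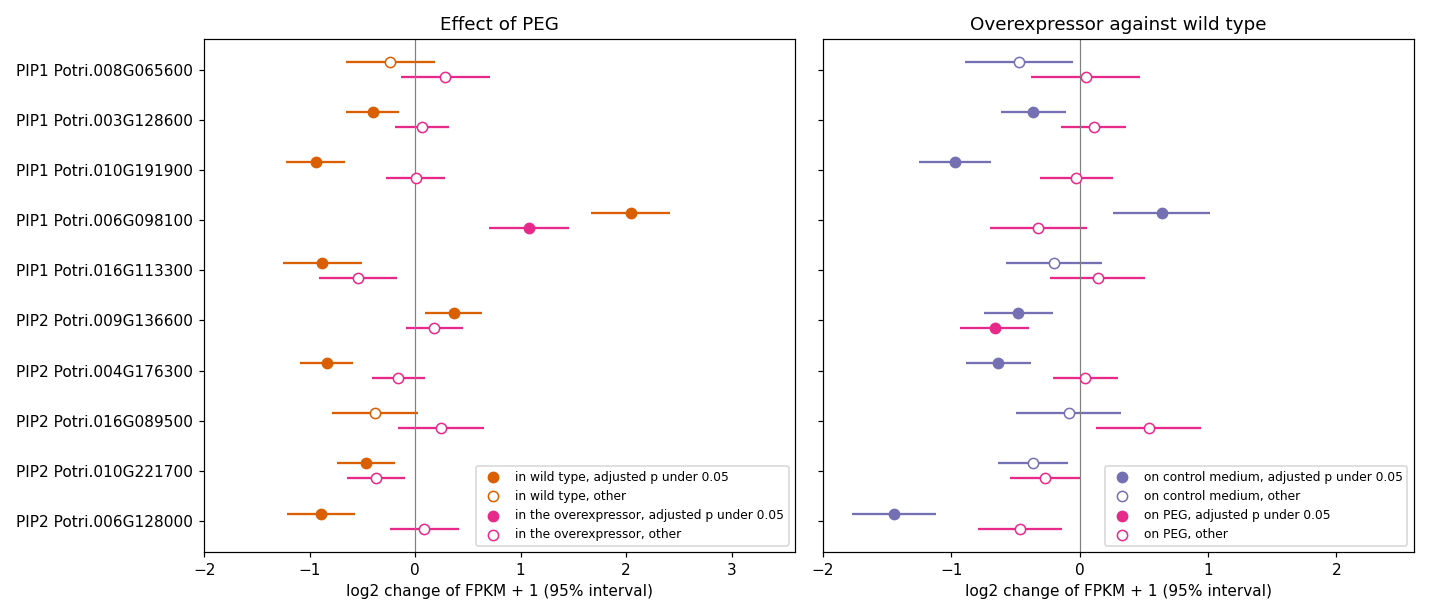
Points are log2 changes of FPKM + 1 with 95% intervals, filled where the adjusted p over 24976 genes is under 0.05. The left panel shows PEG against control medium within each genotype, and the right panel the overexpressor against wild type on each medium. In the left panel 8 points of wild type and 1 of the overexpressor are filled, and in the right panel 6 on control medium and 1 on PEG.

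The difference between these PEG responses was tested as an interaction, in which a positive value means a more positive response in the overexpressor. It was called for 4 of the 10 members, 3 positive and 1 negative, against 7.5% of all tested genes (3.5% positive and 4% negative). The median over the members was 0.49, against -0.0068 over all tested genes. The 3 positive ones were genes that fell in wild type: Potri.006G128000 with 0.98 (SE 0.211, limma adjusted p 0.0162), Potri.010G191900 with 0.95 (SE 0.182, adjusted p 0.00989) and Potri.004G176300 with 0.68 (SE 0.164, adjusted p 0.0279). The negative one was Potri.006G098100, whose rise was smaller in the overexpressor (-0.96, SE 0.245, adjusted p 0.0352). The interaction holds the wild-type response with its sign reversed, so its sign is not independent of a fall or rise in wild type. Of the 6 members not called, Potri.016G089500 had 0.62 (95% interval 0.045 to 1.2, adjusted p 0.189) and Potri.003G128600 0.47 (0.11 to 0.83, adjusted p 0.111), both with an unadjusted p under 0.05. Potri.003G128600 passed without overexpressor PEG library 4 (0.58, adjusted p 0.0447). The others were Potri.008G065600 with 0.52 (-0.078 to 1.12), Potri.016G113300 with 0.34 (-0.18 to 0.86), Potri.010G221700 with 0.097 (-0.29 to 0.48) and Potri.009G136600 with -0.19 (-0.57 to 0.2). The call of Potri.010G191900 held in all 18 alternatives and that of Potri.006G128000 in 17 of 18, being lost without library 1 of wild type on PEG (adjusted p 0.0507). The calls of Potri.004G176300 and Potri.006G098100 were each lost in 7 of the 12 fits without 1 library, with adjusted p over all alternatives of 0.0209 to 0.0742 and 0.0129 to 0.211. For both genes these included wild-type controls 2 and 3, overexpressor control 5, wild-type PEG libraries 1 and 3 and overexpressor PEG library 3, with overexpressor control 1 for Potri.004G176300 and overexpressor PEG library 4 for Potri.006G098100.

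**Figure D4:**
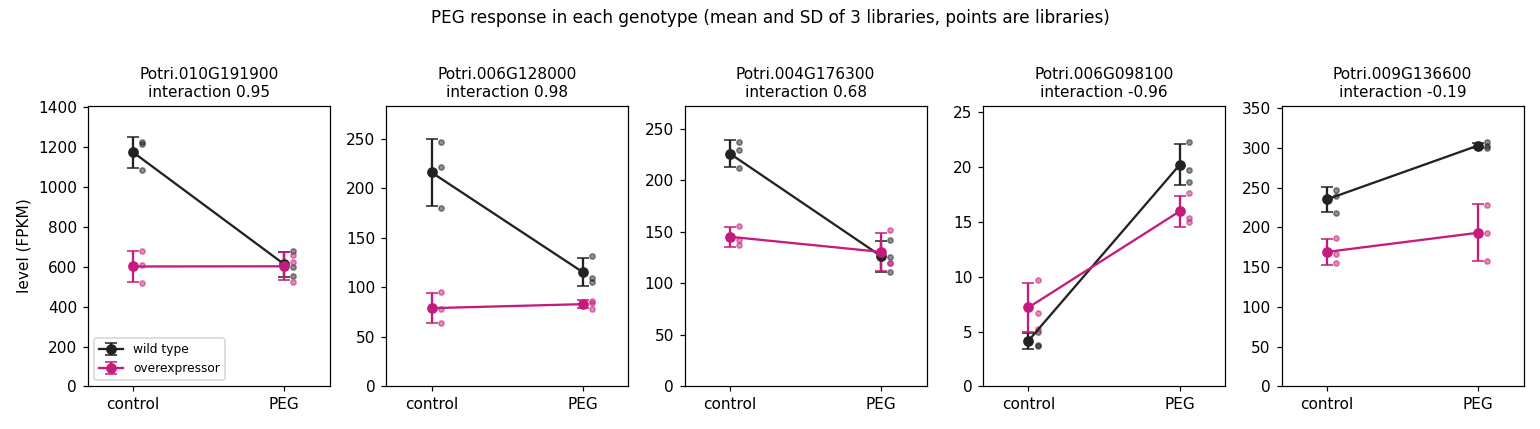
Lines join the mean FPKM on control medium and on PEG in wild type (black) and in the overexpressor (pink), with SD bars over 3 libraries and each library as a small point, for the 4 members with a called interaction and for Potri.009G136600. The wild-type lines of Potri.010G191900, Potri.006G128000 and Potri.004G176300 fall, with interactions of 0.95, 0.98 and 0.68, and the interaction of Potri.009G136600 is -0.19.

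Without PEG, the overexpressor already held less of several PIP transcripts than wild type. On control medium 5 members were lower (2 PIP1 and 3 PIP2) and 1 was higher, and 20.3% of all tested genes were called, 7.56% lower and 12.8% higher. The median log2 difference of overexpressor minus wild type was -0.42 over the 10 members and 0.08 over all tested genes. Potri.006G128000 differed most, by -1.45 (SE 0.149, limma adjusted p 1.53e-04), from 216 ± 33.5 FPKM in wild type to 79.1 ± 15.4, a ratio of 0.366. Potri.010G191900 followed with -0.97 (SE 0.129, adjusted p 5.89e-04, ratio 0.512), then Potri.004G176300 with -0.63 (SE 0.116, adjusted p 0.00349, ratio 0.643). Potri.009G136600 was lower by -0.48 (SE 0.124, adjusted p 0.0193) and Potri.003G128600 by -0.36 (SE 0.116, adjusted p 0.0468). Potri.006G098100 was higher by 0.64 (SE 0.173, adjusted p 0.0231), a ratio of 1.73. The genotypes' libraries did not overlap for 7 members, 6 lower and 1 higher, as for 38% of all tested genes (13.7% lower and 24.3% higher).

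Potri.010G221700 (-0.36, adjusted p 0.0582) and Potri.008G065600 (-0.47, adjusted p 0.103) did not pass, although both had an unadjusted p under 0.05. Without library 2 of the overexpressor controls, which stood highest of its group in 8 of the 10 members, these had -0.5 (adjusted p 0.0161) and -0.7 (adjusted p 0.0162). On all libraries Potri.010G221700 passed with median-ratio scaling (-0.44, adjusted p 0.0275), upper-quartile scaling (-0.4, adjusted p 0.0416) and limma-voom (-0.43, adjusted p 0.035), each of which called 6 members lower. Of all tested genes these called 4885, 4966 and 5302 in either direction, in place of 5080. Potri.008G065600 also passed without wild-type control 1 (-0.63, adjusted p 0.0475). The call of Potri.006G098100 was lost without library 2 of the overexpressor controls (0.43, adjusted p 0.0675). It was also lost when wild-type control 2 (0.59, adjusted p 0.0755) or 3 (0.58, adjusted p 0.0754) was left out. The call of Potri.003G128600 was lost in 9 of 12 such fits, all but those without wild-type PEG library 2 or overexpressor PEG library 3 or 4, with adjusted p of 0.0185 to 0.177 over all alternatives. That of Potri.009G136600 was lost when wild-type control 2 (adjusted p 0.066) or overexpressor control 5 (0.0693) was left out.

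The levels of the overexpressor controls were set beside those of wild type on PEG, for the 10 members only. No share over all tested genes was counted for this comparison, so the counts of overlap describe the members alone. For 6 of the 10 members the libraries of these groups overlapped, among them Potri.010G191900 (means of 602 and 612 FPKM), Potri.003G128600 (1483 and 1440 FPKM) and Potri.004G176300 (145 and 126 FPKM). For 4 members they did not. Potri.006G128000 was lower in the overexpressor controls than in wild type on PEG (79.1 against 115 FPKM), as were Potri.006G098100 (7.19 against 20.2 FPKM) and Potri.009G136600 (169 against 303 FPKM), and Potri.016G113300 was higher (48.8 against 30.3 FPKM). The response of wild type to PEG and the genotype effect on control medium share the wild-type control libraries, so their values are not independent. Potri.009G136600 had log2 values of opposite sign in them, 0.37 for PEG and -0.48 for genotype.

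On PEG the genotypes differed in 1 called member. Potri.009G136600 was lower in the overexpressor by -0.66 (SE 0.124, limma adjusted p 0.00469), at 193 ± 35.6 FPKM against 303 ± 3.65 in wild type. It was below wild type in every overexpressor library of the same medium, and its call on PEG held in all 19 alternatives. The genotypes did not overlap on PEG for 4 members, all lower in the overexpressor, as for 35% of all tested genes (12.4% lower and 22.6% higher). Of all tested genes 14.5% were called on PEG, 5.3% lower and 9.19% higher. Potri.006G128000 had -0.46 (adjusted p 0.0573), which passed with median-ratio scaling (-0.56, adjusted p 0.026), with upper-quartile scaling (-0.5, adjusted p 0.0392) and with limma-voom (-0.47, adjusted p 0.0471). It also passed in a fit of the 6 PEG libraries alone (adjusted p 0.0264) and without wild-type control 1 (0.0421), overexpressor control 1 (0.0413) or overexpressor control 2 (0.0359). No member was called higher by limma or limma-voom, and 1, Potri.016G089500, was higher at an unadjusted p under 0.05 (0.54, adjusted p 0.0771). It passed without library 2 of wild type on PEG (0.73, adjusted p 0.0217). Differences of the abundant PIP1 genes on PEG were small, with 0.11 (95% interval -0.14 to 0.36) for Potri.003G128600, -0.025 (-0.31 to 0.26) for Potri.010G191900 and 0.046 (-0.38 to 0.47) for Potri.008G065600. The median over the 10 members was 0.0099 and over all tested genes 0.076.

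The makeup of the PIP sum moved with these changes. PIP2 genes made up 16.4% ± 0.114 of it in the wild-type controls and 18.2% ± 0.181 in wild type on PEG. They made up 15.2% ± 0.803 in the overexpressor controls and 15.1% ± 0.788 in the overexpressor on PEG (SD, n = 3). Wild type on PEG, at 18 to 18.3%, lay above the other groups, which ran from 14.3 to 16.6%. Within the sum, the share of Potri.009G136600 was 4.91% ± 0.503 in the wild-type controls and 8.75% ± 0.623 in wild type on PEG, while overexpressor libraries had 5.18% ± 0.639 without PEG and 5.49% ± 0.539 with it. The share of Potri.010G191900 was 24.4% ± 0.513 in the wild-type controls and 17.6% ± 0.691, 18.3% ± 0.851 and 17.2% ± 0.483 in wild type on PEG, the overexpressor controls and the overexpressor on PEG. Potri.003G128600 remained the most abundant of the 10 genes in every group, with 39.7% ± 2.15 of the sum in the wild-type controls and 45.4% ± 3.36 in the overexpressor controls. No test was made on sums and shares, because they combine members chosen with earlier results known.

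Within groups, single libraries stood highest or lowest for many members at once. Library 2 was the highest of its group for 8 of 10 members in the wild-type controls, for 7 in wild type on PEG and for 8 in the overexpressor controls. Library 1 of the wild-type controls was the lowest for 8 members, and library 4 of the overexpressor on PEG for 7. How often each library stood highest or lowest over all tested genes was not counted. The factor used for median-ratio scaling was the highest of its group for library 2 of the overexpressor controls (1.08) and of wild type on PEG (0.975). It was the lowest of its group for wild-type control 2 (0.956) and overexpressor PEG library 4 (1.0015), and in between for wild-type control 1 (1.008). The part of these libraries in the results was not tested beyond leaving each out.

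The genes with the course most like that of the most abundant PIP1 and PIP2 were found by Pearson correlation of log2(FPKM + 1) over the 12 libraries. Compared were 15570 genes whose mean reached 5 FPKM, with the 10 PIP genes themselves left out. The libraries form 4 groups, so the points share their group's medium and genotype, and the values are given as a description. For Potri.003G128600 they were Potri.009G059300.v3.1 (r = 0.946), Potri.005G034300.v3.1 (r = 0.942) and Potri.010G001900.v3.1 (r = 0.936). Potri.005G034300.v3.1 had group means of 12.5 FPKM in the wild-type controls and 6.42, 6.75 and 7.4 FPKM in wild type on PEG, the overexpressor controls and the overexpressor on PEG. For Potri.009G136600 they were Potri.019G079300.v3.1 (r = 0.959), Potri.014G018100.v3.1 (r = 0.955) and Potri.014G115600.v3.1 (r = 0.949). Potri.019G079300.v3.1 had means of 49.6 and 62 FPKM in wild type on control medium and PEG, and 34.5 and 39 FPKM in the overexpressor.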

How the data were processed

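Each deposited file held 1 library with 1 value per gene identifier. No header named the unit. The deposited values were taken as FPKM, scaled by the authors to gene length and library total, because 100% of 370737 values above 0 came out as whole reads within 0.01 read once 1 depth per library and 1 length per gene were set. Bowtie2 2.2.3 and HISAT2 2.1.0 are named without roles in the submitters' processing notes, while for the annotation, genome build and counting tool the sources used here give nothing.

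Two-sided tests came from limma 3.58.1 in R 4.3.3, with its trended empirical Bayes step, on log2(FPKM + 1). The 24976 genes that reached 1 FPKM in 3 libraries entered 1 model of the 4 group means with 8 residual degrees of freedom. No scaling was added to the authors' FPKM. The fit was tested on simulated data. All 10 members were named by rule, with the 3 genes most like the most abundant PIP1 and PIP2. The members and lists were chosen with earlier results of these data known. Planned work on other aquaporins, promoters, protein identity, member pairs, PuC3H35 itself and tissue markers needs gene names or sequences and was not done here. Same-numbered libraries had deviations that correlated over 0.1 in 2 of 12 pairs (-0.23 to 0.26), and correlations between differently numbered libraries of different groups ran from -0.32 to 0.34. No label says that a number is a shared batch or line, so libraries were not paired. Alternatives changed the pseudocount, the filter, the scaling, the libraries in the fit and the test.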

Additional observations from a re-analysis of the deposited data

Results flagged for a closer look

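The PEG response differed between wild type and overexpressor, by the limma interaction test adjusted over 24976 genes, in 4 members, which is what marks them for a closer look. Potri.010G191900 had an interaction of 0.95 (adjusted p 0.00989), and its overexpressor libraries overlapped those of wild type on PEG on either medium. Potri.006G128000 had 0.98 (adjusted p 0.0162), with all 6 overexpressor libraries below the 6 wild-type libraries. Potri.004G176300 had 0.68 (adjusted p 0.0279). Potri.006G098100 had -0.96 (adjusted p 0.0352), the only negative value among the 4. The cause of these differences was not tested.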

How the results depend on the processing

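Over all alternatives, the 20 called values of single members kept their direction in 384 of 384 fits and lost their call in 55. In many of these fits the direction could not change. Dropping the filter, fitting the compared libraries alone or leaving out a library of a group not compared leaves the log2 change as it was. The count of directions kept is therefore no measure of how firm they are. Of the 30 values not called, 20 of 566 fits gave a call and 15 another sign. Without a filter, members higher on PEG in wild type were 1 (in place of 2), members lower there 5 (in place of 6), members lower for genotype on control medium 4 (in place of 5) and negative interactions 0 (in place of 1), with Potri.003G128600 losing both of its calls (adjusted p 0.112 and 0.177). Of the 35301 genes then tested, 7372 were called for PEG in wild type, 4716 for genotype on control medium and 1538 for the interaction. For the genotype effect on PEG, members called lower were 2 (in place of 1) with limma-voom, with upper-quartile or median-ratio scaling and with a fit of the compared libraries alone. In such a fit, members higher were 0 (in place of 1) for PEG in the overexpressor and 0 (in place of 1) for genotype on control medium. With a replicate block, which the labels do not call for, these were also 0 and 0, members lower on control medium were 3 (in place of 5), members higher on PEG were 1 (in place of 0) and negative interactions 0. It also called Potri.016G089500 for PEG in wild type (adjusted p 0.029) and for the interaction (0.99, adjusted p 0.0268), where Potri.004G176300 lost its call (adjusted p 0.0655). Calls over all 24976 tested genes moved too. With the block they were 149 (in place of 519) for PEG in the overexpressor. For genotype they were 3138 (in place of 5080) on control medium and 2174 (in place of 3620) on PEG. The interaction had 848 (in place of 1873) and PEG in wild type 7230 (in place of 7147). The compared libraries alone gave 265 for PEG in the overexpressor and, for genotype, 3325 on control medium and 3355 on PEG. The block in the 6 wild-type libraries alone, chosen after seeing the data, called 7 members lower on PEG, in place of 6, adding Potri.016G089500 (adjusted p 0.0457). Of all tested genes it called 6836. Leaving out 1 library at a time, members higher were 1 to 2 and members lower 4 to 7 for PEG in wild type. For genotype, members higher were 0 to 1 on control medium and 0 to 1 on PEG. Members lower for genotype were 3 to 6 on control medium and 1 to 2 on PEG. Interactions were 1 to 4 positive and 0 to 1 negative. In the same fits, calls over all tested genes ran from 5266 to 7596 for PEG in wild type. They ran from 3147 to 5719 for genotype on control medium and from 1746 to 3771 for genotype on PEG. The interaction had 967 to 2076.

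Signs turned only for values near 0 that had not been called. For genotype on PEG, Potri.008G065600 had -0.049 with median-ratio scaling and -0.0542 to 0.139 without single libraries, Potri.004G176300 had -0.0503 and -0.0699 to 0.131, and Potri.010G191900 had 0.123 with the replicate block and -0.0924 to 0.0718. Potri.016G089500 had -0.239 to 0.0542 for genotype on control medium. For PEG in the overexpressor, Potri.006G128000 had -0.0508 to 0.228, Potri.010G191900 -0.0983 to 0.101 and Potri.003G128600 -0.00864 to 0.173. The cause was not tested. edgeR and DESeq2 were not run, because the files hold FPKM and not counts. On the recovered reads limma-voom was run instead. Ratios within pairs of members were not computed, because no protein sequence was at hand. Potri.006G098100, with 56 to 78 reads in the wild-type controls, has the least depth there.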
